A study of Gallus gallus with 30 samples.

Results

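COX1 (ENSGALG00000032142), COX2 (ENSGALG00000032456) and COX3 (ENSGALG00000035334) are the mitochondrially encoded subunits of cytochrome c oxidase, and their expression was followed through 10 stages of the chicken ovarian follicle. They were chosen by their identifiers, as 3 of the 23910 genes in the expression table, and all 3 were among the 15197 genes kept after a filter on low values. The granulosa layers came from laying Luhua hens aged 31 weeks, for which the labels name no treatment, and each stage had 3 RNA-seq libraries, 30 in all. The prehierarchical class held SWF, LWF, SYF and LYF (12 libraries), the preovulatory class held F5, F4, F3, F2 and F1 (15 libraries, F1 being the follicle closest to ovulation), and POF, the postovulatory follicle, had 3 libraries. The labels call the replicates biological but tie no library to an animal, so the tests measure the spread between libraries, whatever its source. The titles of 6 libraries swap the names LWF and SYF relative to their descriptions. Column names are used here, so that LWF stands for the libraries titled SYF and SYF for those titled LWF. Comparisons of classes do not depend on this exchange.

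Cytochrome c oxidase, or complex IV, is the last enzyme of the mitochondrial respiratory chain, where electrons from cytochrome c are passed to oxygen and protons are pumped across the inner membrane. COX1 carries the haem and copper centre at which oxygen is reduced, COX2 carries the copper centre that takes electrons from cytochrome c, and COX3 completes the core without a metal centre of its own. The remaining subunits are encoded in the nucleus. Mitochondrial DNA is transcribed into long RNAs that are cut into single transcripts, so the genes on one strand share their transcription while their steady-state levels can differ. In the granulosa layer mitochondria also house the first step of steroid synthesis. In the RefSeq gene order of the chicken mitochondrial genome, COX1 is followed by COX2, ATP8, ATP6 and COX3.

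Expression was given as FPKM, the fragments of a gene scaled by its transcript length and by all mapped fragments of the library, which allows levels of different genes to be set side by side within a library. Because FPKM is relative to all other transcripts of a library, the members were also expressed as a share of the summed FPKM of the 13 named mitochondrial genes. Those 13 genes took between 12.9% (POF replicate 1) and 46.4% (LYF replicate 1) of the summed FPKM of a library. LYF replicate 1 also had the highest summed FPKM, 642207, against 471009 to 562322 in the other 29 libraries, and the class differences in level are given with and without it. ATP6 stood at 0.536 to 1.06 of COX1 in 3 libraries (SWF replicate 1, F1 replicate 1 and POF replicate 3) and at 0.0345 to 0.0764 of COX1 in the other 27. A group of 6 libraries with higher base quality held only preovulatory and POF samples (F4, F3, F2, F1 and POF replicate 3, and F1 replicate 2). Genes that mark granulosa or theca cells were not paired with names here, so the labelled tissue was not checked against its markers. In bulk tissue, fewer cells of a type and less RNA per cell cannot be told apart.

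The COX genes were among the most abundant transcripts of every library. COX1 had rank 1, 2 or 3 among all genes in all 30 libraries and rank 1 in 17 of them. COX2 ranked between 4 and 6, and COX3 between 1 and 7. Within a library COX1 exceeded COX2 in 30 of 30 cases and COX3 in 28 of 30, and COX3 exceeded COX2 in 27 of 30. The 3 genes together made up 7.43% (POF replicate 1) to 20.3% (LYF replicate 1) of the summed FPKM. These ranks follow FPKM as deposited, and reads shared with nuclear copies of mitochondrial DNA were not examined.

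COX1, the catalytic subunit, was lowest in POF replicate 1 and highest in LYF replicate 1. In SWF its level was 17665, 24537 and 23871 FPKM in replicates 1, 2 and 3, and in LWF it was 29115, 29554 and 30706 FPKM. In SYF it was 28509, 44174 and 26545 FPKM, and in LYF it was 55953, 25526 and 24346 FPKM. SWF thus lay below every library of LWF and SYF, whereas in LYF a single library lay far above the other two. Among preovulatory follicles the COX1 levels were 16296, 25629 and 28167 FPKM in F5, 22872, 18446 and 22347 FPKM in F4, and 31563, 23820 and 26711 FPKM in F3. They were 22775, 23762 and 21588 FPKM in F2 and 20388, 22937 and 25505 FPKM in F1. F4 and F2 lay entirely below F3, and the other pairs of preovulatory stages overlapped. In POF the levels were 14085, 22598 and 38649 FPKM, a spread that went beyond the range of the preovulatory libraries at both ends.

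COX2, the subunit that receives electrons from cytochrome c, lay above the preovulatory range in most prehierarchical libraries. In SWF the COX2 level was 15529, 18173 and 19383 FPKM, in LWF 17775, 14803 and 20782 FPKM, and in SYF 18057, 27433 and 15547 FPKM. In LYF it was 37064, 12328 and 11303 FPKM, so that replicates 2 and 3 already lay in the range of the preovulatory follicles and replicate 1 lay above all other libraries. In the preovulatory stages COX2 was at 11634, 10392 and 12197 FPKM in F5, 11243, 9112 and 14874 FPKM in F4, and 14804, 12614 and 13028 FPKM in F3. It was at 12070, 12514 and 14071 FPKM in F2 and at 13360, 15055 and 14627 FPKM in F1. The preovulatory maximum was 15055 FPKM, and 9 of the 12 prehierarchical libraries lay above it. All 3 SWF libraries and all 3 SYF libraries exceeded every one of the 15 preovulatory libraries. How many of all genes separate in this way was not counted, so this is not read as a result about COX2. POF was at 7387, 12912 and 17680 FPKM.

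COX3, the core subunit without a metal centre, was highest in SYF by the stage means. Its level was 15074, 23057 and 24149 FPKM in SWF, 24461, 26782 and 26358 FPKM in LWF, and 29707, 38534 and 17817 FPKM in SYF. In LYF it was 37233, 17710 and 19600 FPKM. The 3 LWF libraries were tightly grouped and lay above all libraries of F5, F4, F2, F1 and POF, while they overlapped with F3. COX3 was at 13088, 16664 and 21718 FPKM in F5, at 15834, 12379 and 17556 FPKM in F4, and at 24608, 18818 and 20744 FPKM in F3. It was at 16945, 16734 and 12571 FPKM in F2, at 11905, 16683 and 17274 FPKM in F1, and at 13506, 16374 and 18145 FPKM in POF. F3 lay above every library of F4, F2, F1 and POF.

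**Figure D1:**
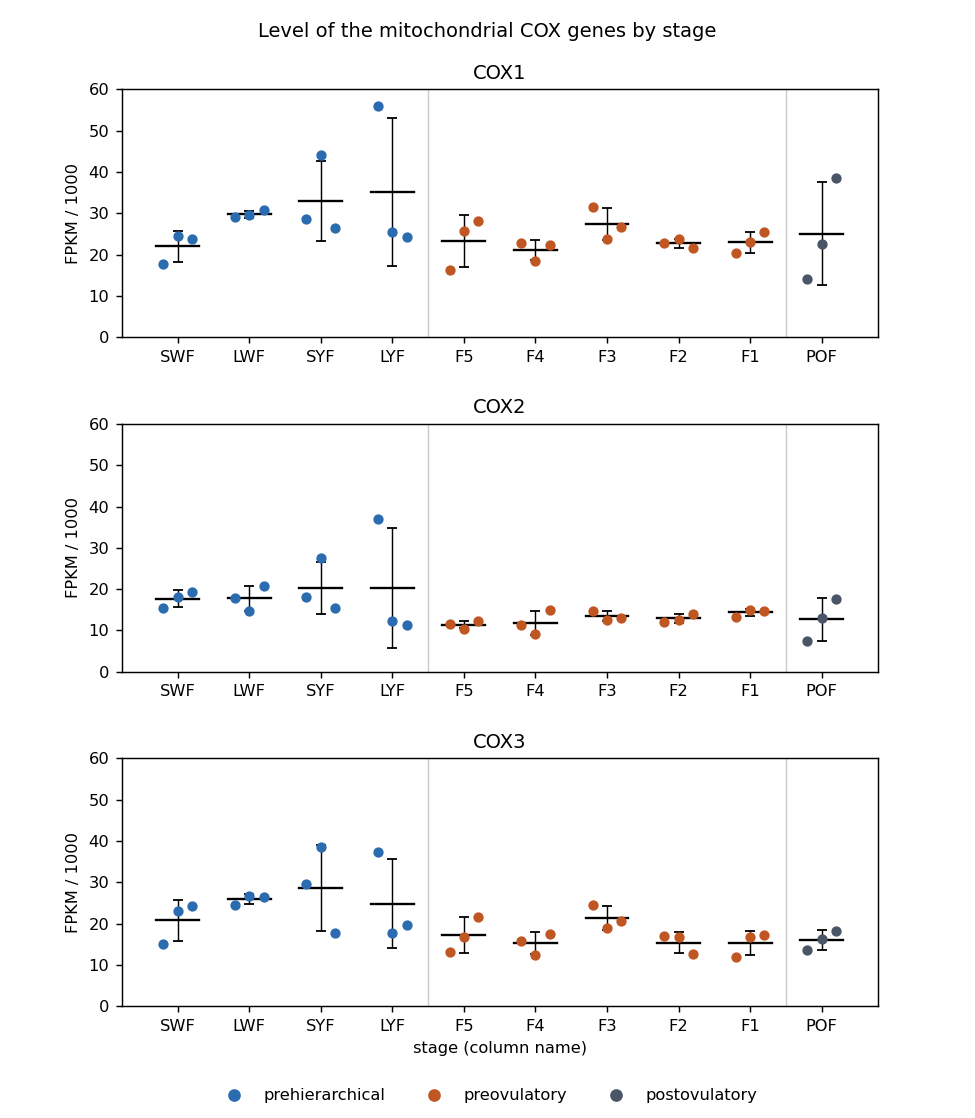
FPKM (divided by 1000 on the axis) of COX1, COX2 and COX3 in each of the 30 libraries by stage, with 1 point a library, the stage mean as a horizontal line and the SD over 3 libraries as a bar. LYF replicate 1 stands at 55953 FPKM for COX1 and 37064 FPKM for COX2, and the preovulatory libraries of COX2 stay between 9112 and 15055 FPKM.

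By stage means, COX1 ran from LYF (35275 FPKM ± 17918, SD, n = 3) to F4 (21222 ± 2418), and each stage overlapped with its neighbour in that order. For COX2 the order ran from SYF (20346 ± 6265) to F5 (11407 ± 924), and the only gap between neighbours was that between SWF (17695 ± 1971) and F1 (14347 ± 882). For COX3 it ran from SYF (28686 ± 10396) to F4 (15256 ± 2636), again with overlap between all neighbours. The LYF means rest on replicate 1. Without it they fell to 24936 FPKM for COX1, 11816 for COX2 and 18655 for COX3 (n = 2), which put LYF at place 5, 8 and 5 of the 10 stages. The coefficient of variation within a stage reached 72.1% for COX2 in LYF and was 2.76% for COX1 in LWF. Of the 45 pairs of stages, the ranges did not overlap in 13 for COX1, in 14 for COX2 and in 16 for COX3. Over all genes kept, 35.6% of gene and pair combinations did not overlap, so these counts lie near the background.

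The main question for the follicle series was whether the genes differed between the prehierarchical and the preovulatory class. COX1 averaged 30042 FPKM ± 10276 (SD, n = 12) in prehierarchical and 23520 FPKM ± 3772 (n = 15) in preovulatory libraries. COX2 averaged 19015 ± 7066 against 12773 ± 1751, and COX3 averaged 25040 ± 7368 against 16901 ± 3601. All 3 means were lower in the preovulatory class, and the groups overlapped for each gene: 2 prehierarchical libraries lay above the preovulatory maximum for COX1, 9 for COX2 and 5 for COX3. In limma with a trend of the spread on expression, fitted on log2(FPKM + 1) over all genes kept, the differences were -0.31 (SE 0.45) for COX1, -0.51 (SE 0.35) for COX2 and -0.54 (SE 0.39) for COX3. Their Benjamini-Hochberg adjusted p-values were 0.58, 0.22 and 0.24 in limma, so none of the 3 passed the limits set for a call, a fold over 1.5 together with an adjusted p below 0.05, and 0 of the 3 had an unadjusted p under 0.05. By the same rule 33.2% of the 15197 genes were called, 1181 higher and 3871 lower in preovulatory follicles, and the median over all genes was -0.28.

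The error given to these genes depended on the form of the test. Without the trend, limma gave the same differences with SEs of 0.15 for COX1, 0.16 for COX2 and 0.14 for COX3, and adjusted p-values of 0.079, 0.0084 and 0.0017. All 3 then had an unadjusted p under 0.05. With the trend, 9299 of the 15197 genes had such a p in this comparison. Without the trend, the number of all genes at that limit, or at the adjusted p alone, was not counted. COX2 and COX3 passed the adjusted p but not the fold of 1.5, their folds being 0.701 and 0.687 on the FPKM + 1 scale. A permutation test of log2(FPKM + 1) over the 12 and 15 libraries was added after seeing the data. It shuffled libraries without regard to stage. Its two-sided p-values were 0.021 for COX1, 0.00019 for COX2 and 0.00081 for COX3. After adjustment over 26 such tests the permutation p-values were 0.039, 0.00082 and 0.0026. The test was run on the 13 named mitochondrial genes only, so the share of all genes that would pass was not counted. Leaving out LYF replicate 1 brought the limma differences to -0.21, -0.37 and -0.46. In the permutation test without that library, also added after seeing the data, COX1 no longer passed (adjusted p = 0.093), while COX2 (adjusted p = 0.0026) and COX3 (adjusted p = 0.0045) did. With the libraries scaled by their upper quartile the COX1 difference turned to 0.01, and those of COX2 and COX3 became -0.19 and -0.22. That scaling moved the median of all genes by 0.26, and the members moved with it.

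**Figure D2:**
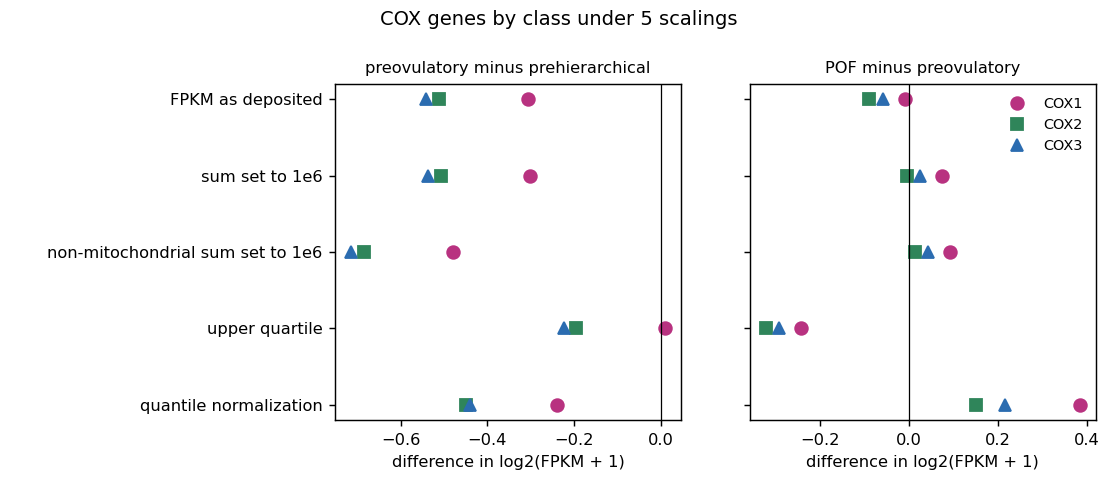
Difference in log2(FPKM + 1) between classes for COX1, COX2 and COX3 under 5 ways of scaling the libraries, preovulatory minus prehierarchical on the left and POF minus preovulatory on the right. On the left only COX1 under upper quartile scaling (0.01) is not below 0, while on the right all 3 genes change sign between scalings.

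The other 10 named mitochondrial genes lay on the same side in this comparison. In the limma fit with trend all 10 differences were negative, with a median of -0.56, and 4 were called lower and 0 higher in preovulatory follicles. The called genes were ND3 (-0.83), ND4L (-0.82) and ND4 (-0.71), which encode subunits of NADH dehydrogenase (complex I), and CYTB (-0.63), the mitochondrial subunit of complex III. Without the trend the same 4 genes were called. Of all genes 33.2% were called in either fit, so 4 of 10 lies near the background. In the permutation test of log2 levels, run on mitochondrial genes only, more of the 10 passed, all lower in preovulatory follicles. Adjusted permutation p-values were 8.7e-05 for CYTB, ND4L and ND4, 0.00026 for ND3, 0.00082 for ND5 and 0.00093 for ND2. They were 0.0079 for ATP8 and 0.037 for ND6, while ND1 (0.24) and ATP6 (0.54) did not pass. The lower level in that test was thus not particular to the COX genes. ATP8 (-0.38) and ATP6 (-0.34), which lie between COX2 and COX3 in the gene order and overlap each other, were not called in limma. COX1 had a smaller difference than all of them except ND1 (-0.22). The nuclear subunits and assembly factors of cytochrome c oxidase were not analysed here, since the identifiers of the table were paired with names for 36 genes.

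**Figure D3:**
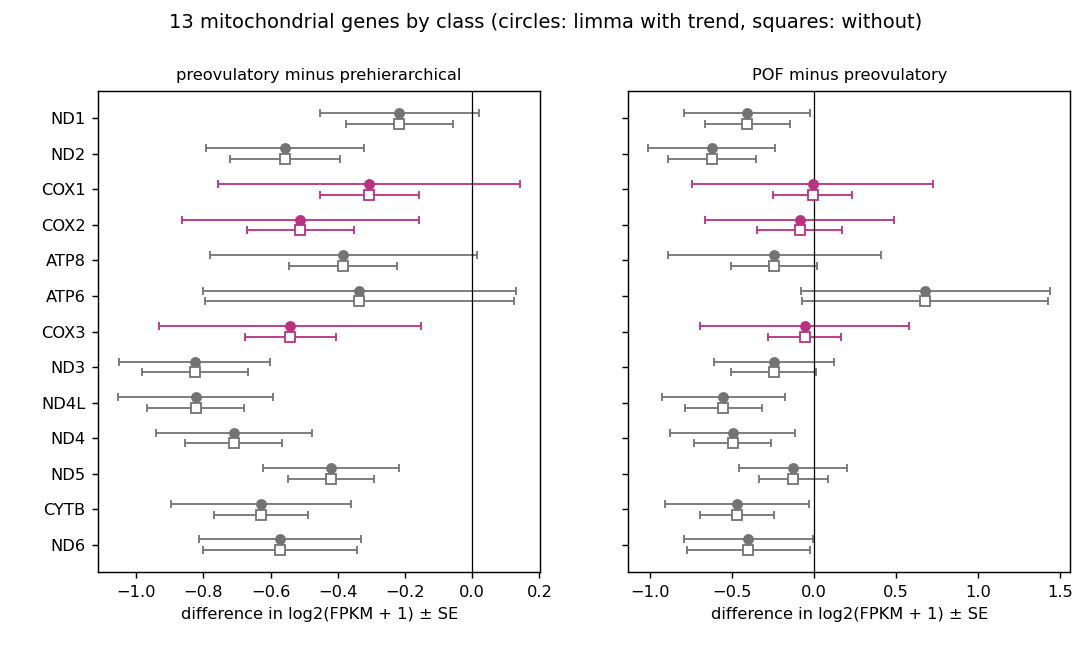
Difference in log2(FPKM + 1) with its SE for the 13 named mitochondrial genes in their RefSeq order, from limma with trend (circles) and without (squares), with the COX genes in colour. All 13 lie below 0 in the left panel, and the bars of the COX genes shrink from 0.35 to 0.45 with trend to 0.14 to 0.16 without it.

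Single stages were compared in all 45 pairs, with 6 libraries to a pair. In limma with trend 0 of 45 pairs were called for COX1, 0 for COX2 and 0 for COX3, and 0 had an unadjusted p under 0.05 for any of them. Over all genes and pairs 13.7% were called. In these small fits the SE of the members ran from 0.54 to 13.7 for COX1, from 0.46 to 6.74 for COX2 and from 0.52 to 8.79 for COX3 on the log2 scale, so that the pair tests with trend carry little information on the most abundant genes. Without the trend 0 of 45 pairs were called for COX1, 1 for COX2 and 3 for COX3, and 5, 11 and 10 pairs had an unadjusted p under 0.05. Over all genes and pairs 13.8% were called without the trend. In the fits with trend, 387 (SYF minus LWF) to 9451 (F1 minus SWF) of the 15197 genes had an unadjusted p under 0.05. That number was not counted without the trend, so the 5, 11 and 10 pairs are not read as a result about the members. The COX2 call was F5 minus SWF, with a log2 difference of -0.63 (SE 0.15, limma without trend adjusted p = 0.025), in a comparison where 32.5% of all genes were called. The COX3 calls all involved LWF (titled SYF): F4 minus LWF was -0.78 (SE 0.16, limma adjusted p = 0.024), F2 minus LWF was -0.76 (SE 0.16, limma adjusted p = 0.018) and F1 minus LWF was -0.78 (SE 0.17, limma adjusted p = 0.013). The shares of all genes called in these comparisons were 19.2%, 33.1% and 45.9%. With LWF and SYF exchanged in the titles, the stage to which these calls belong is uncertain.

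Within the hierarchy the COX genes had no trend that passed the test. From F5 to F1 the slope per step was 0.01 (SE 0.23) for COX1, 0.08 (SE 0.15) for COX2 and -0.03 (SE 0.18) for COX3 in limma with trend, with adjusted p-values of 0.99, 0.69 and 0.93 and 0 of 3 with an unadjusted p under 0.05. Over all genes 40.2% had a slope that passed. COX2 came nearest without the trend, where its slope had an SE of 0.03 and a limma adjusted p of 0.051. The share of all genes whose slope passed without the trend was not counted. In the values behind that slope, all 3 F1 libraries (13360 to 15055 FPKM) lay above all 3 F5 libraries (10392 to 12197 FPKM). F4 overlapped with both. Over all genes kept, 35.6% of gene and pair combinations did not overlap, so this is not read as a result about COX2. F1 replicates 2 and 3 belong to the libraries of higher base quality, and no F5 library does.

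After ovulation the means of the members stayed close to those of preovulatory follicles, and the POF libraries were far apart. COX1 averaged 25111 FPKM ± 12473 (SD, n = 3) in POF, COX2 12660 ± 5151 and COX3 16009 ± 2341. The limma differences between POF and the preovulatory class were -0.01 (SE 0.73) for COX1, -0.09 (SE 0.58) for COX2 and -0.06 (SE 0.64) for COX3, with adjusted p-values of 0.998, 0.93 and 0.96. In this comparison 39.8% of all genes were called. Without the trend, where 39.9% of all genes were called, the SEs were 0.24, 0.26 and 0.22 and the limma adjusted p-values were 0.98, 0.83 and 0.87. Each sign turned without POF replicate 1, to 0.35, 0.26 and 0.06, and lay at -0.38, -0.37 and -0.15 without POF replicate 3. The sign of COX1 turned in 7 of the 18 fits that left out 1 library. These included the fit without POF replicate 2 (0.01) and some without a preovulatory library. The signs also turned between the scalings in the plot of the 5 scalings, so no direction can be given. Of the other 10 mitochondrial genes 9 had negative differences, with a median of -0.40 over the 10, and 0 were called in limma with or without the trend. At an unadjusted p under 0.05 there were 0 with trend and 4 without, all 4 negative (CYTB, ND4L, ND4 and ND2). With trend, 7755 of the 15197 genes had such a p in this comparison, and the number without it was not counted. In the permutation test of log2 levels, exact over 816 arrangements and adjusted over 26 tests, CYTB (-0.47, adjusted p = 0.022), ND4 (-0.50, adjusted p = 0.026) and ND4L (-0.55, adjusted p = 0.035) passed.

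The share of mitochondrial FPKM compares the members with the genes transcribed alongside them and does not depend on the scaling of the library. Together the members held 48.9% ± 4.49 (SD, n = 12) of the FPKM of the 13 genes in prehierarchical libraries, 50.5% ± 3.499 (n = 15) in preovulatory libraries and 53.6% ± 3.53 (n = 3) in POF. The sum ranged from 38.2% in SWF replicate 1, a library with high ATP6, to 57.5% in POF replicate 1. COX1 alone held the largest share in 26 of 30 libraries, and ATP8 in 2. COX1 averaged 21.5% over the 30 libraries, COX3 16.4% and COX2 12.3%.

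SWF stood apart in the share of COX1. It held 14.0%, 18.1% and 16.6% of the mitochondrial FPKM in SWF replicates 1, 2 and 3, with a mean of 16.2% ± 2.08 (SD). In replicate 1 ATP6 took 18810 of the 126300 mitochondrial FPKM, which enlarges the denominator there. ATP6 stood at 1402 and 1579 FPKM in replicates 2 and 3. The means of the other 9 stages lay between 21.0% (LYF) and 24.2% (POF), and every one of their 27 libraries lay above every SWF library, the lowest being F5 replicate 1 at 18.4%. With 3 libraries against 3, an exact permutation test of a pair of stages cannot go below p = 0.1, and it gave that value for F1 against SWF. The margin was small, since SWF replicate 2 lay only just below F5 replicate 1. SWF was not singled out in advance, and how often the shares of other genes separate a stage in this way was not counted. The COX2 share overlapped between SWF (13.1% ± 0.671) and all other stages. For the COX3 share (15.3% ± 2.88 in SWF), the SWF range lay entirely below those of LWF and F3 and overlapped with the other stages.

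**Figure D4:**
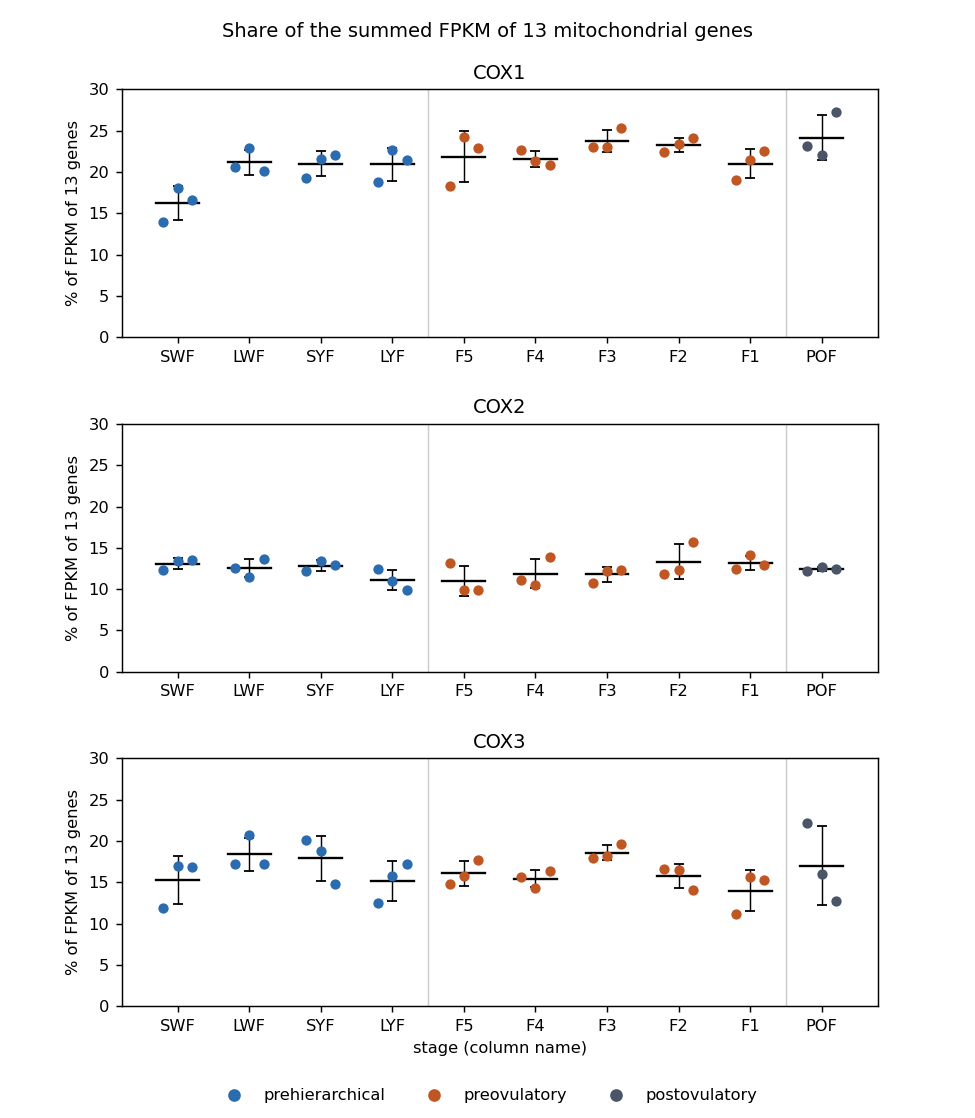
Share of the summed FPKM of 13 mitochondrial genes held by COX1, COX2 and COX3 in each library, with the stage mean and SD (n = 3). For COX1 the 3 SWF libraries (14.0% to 18.1%) lie below all other libraries, while COX2 stays between 9.85% and 15.7% throughout.

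Between classes, the COX1 share was 19.8% ± 2.66 (SD, n = 12) in prehierarchical and 22.3% ± 1.87 (n = 15) in preovulatory libraries. The difference of 2.47 percentage points had a two-sided permutation p of 0.0076, or 0.045 after adjustment over 30 tests of shares and ratios. The test shuffled libraries without regard to stage, so the 3 libraries of a stage counted as separate. The call for the COX1 share rested on the SWF stage and on single libraries. Without SWF the difference was 1.27 points (permutation test, adjusted p = 0.22), and without the 6 libraries of higher base quality, all of them preovulatory or POF, it was 2.20 points (permutation test, adjusted p = 0.20). Leaving out 1 library at a time gave 1.94 to 2.75 points and adjusted permutation p-values of 0.012 to 0.077. The call was kept without LWF replicate 2, SYF replicate 2 or 3, LYF replicate 2 or 3, F5 replicate 1, F4 replicate 2 or 3, or F1 replicate 1, and lost without any 1 of the other 18 libraries.

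COX2 and COX3 did not follow COX1 in share. The COX2 share was 12.4% ± 1.13 in prehierarchical and 12.2% ± 1.62 in preovulatory libraries (-0.18 points, permutation p = 0.74, adjusted p = 0.86). The COX3 share was 16.7% ± 2.66 against 15.97% ± 2.04 (-0.72 points, permutation p = 0.43, adjusted p = 0.65). Set against the summed FPKM of the whole library instead, all 3 members took less in preovulatory follicles, by -1.15 points for COX1, -1.12 for COX2 and -1.495 for COX3, with adjusted permutation p-values of 0.020, 0.0001 and 0.0011. Without LYF replicate 1 these differences were -0.87, -0.92 and -1.40 points, with adjusted permutation p-values of 0.048, 0.0003 and 0.0017. In that test the other 10 named mitochondrial genes were lower as well. ATP8, CYTB, ND4L, ND4, ND2, ND3 and ND5 passed (adjusted permutation p-values of 0.0001 to 0.0036), while ND1 (0.38), ATP6 (0.65) and ND6 (0.14) did not. With all libraries, the 13 genes together took 28.36% ± 7.05 (SD, n = 12) of a prehierarchical and 19.96% ± 2.06 (n = 15) of a preovulatory library. The test was run on the 13 named mitochondrial genes only, so the share of all genes that would pass was not counted. With each library scaled to the same sum, limma with trend called 1309 of the 15197 genes higher and 4581 lower in preovulatory follicles. The median log2 difference over all genes was then -0.33. The lower share of the library was thus not particular to the COX genes or to mitochondrial genes. The direction for COX1 therefore depended on what it was divided by: lower in preovulatory follicles as a share of the library, higher as a share of the mitochondrial genes. In the share of the 13 genes, ND1 (0.78 points) moved up with COX1, and ND4L (-1.02 points) and ND4 (-0.70 points) moved down, with adjusted permutation p-values of 0.013, 0.013 and 0.018.

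In POF the COX1 share was 23.2%, 22.1% and 27.2% in replicates 1, 2 and 3. The difference of 1.86 points from the preovulatory class gave an exact permutation p of 0.17 over 816 arrangements (adjusted p = 0.30). COX2 differed by 0.20 points (exact permutation p = 0.83) and COX3 by 1.04 points (exact permutation p = 0.51). The COX3 share in POF was 22.2%, 16.01% and 12.8%, and replicate 3, the lowest, is a library with high ATP6.

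Ratios to COX1 within a library do not depend on the other mitochondrial genes or on library scaling, but they do depend on COX1, whose share was low in SWF. COX2 stood at 0.879, 0.741 and 0.812 of COX1 in SWF replicates 1, 2 and 3, a mean of 0.811 ± 0.0692 (SD). All 3 values lay above those of all 27 other libraries, whose highest was 0.714 in F5 replicate 1. SWF was not singled out in advance, and how often other ratios separate a stage in this way was not counted. An exact permutation test of F1 against SWF gave p = 0.1, the lowest it can give (adjusted p = 0.33). The stage means of the other 9 stages were between 0.495 (F3) and 0.628 (F1). Between classes the log2 ratio of COX2 to COX1 differed by -0.20, with a permutation p of 0.059 (adjusted p = 0.15), and by -0.08 without SWF (permutation test, adjusted p = 0.60).

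COX3 relative to COX1 was higher in the smaller follicles. The ratio averaged 0.935 ± 0.0793 in SWF, 0.868 ± 0.0341 in LWF and 0.862 ± 0.186 in SYF, against 0.663 ± 0.0728 in F1. The preovulatory libraries lay between 0.582 and 0.803, and 9 of the 12 prehierarchical libraries lay above that range. LYF averaged 0.721 ± 0.0738, with 2 of its 3 libraries in the preovulatory range, and F3 was narrow at 0.777 to 0.790. The log2 ratio differed by -0.23 between classes (permutation p = 0.0031, adjusted p = 0.023). The call held without any 1 library, with adjusted permutation p-values of 0.012 to 0.046, and was lost without SWF (-0.18, adjusted p = 0.11) and without the 6 libraries of higher base quality (-0.23, adjusted p = 0.085).

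ATP6, the gene just before COX3, was high in 3 libraries, and each of these had the lowest ratio of COX3 to COX1 in its stage: 0.853 in SWF replicate 1, 0.584 in F1 replicate 1 and 0.469 in POF replicate 3. ATP6 stood at 14247 to 20734 FPKM in them and at 573 to 2369 FPKM in the other 27 libraries. ATP8, which overlaps ATP6, was at 20621, 18719 and 21334 FPKM in SWF replicate 1, F1 replicate 1 and POF replicate 3. In the other 27 libraries ATP8 was at 8644 to 54505 FPKM, above ATP6 in each. Whether ATP6 was raised in these 3 libraries or read too low in the other 27 was not tested. Without these 3 libraries, a choice made after seeing the data, the log2 ratio of COX3 to COX1 differed between classes by -0.21 (permutation test, adjusted p = 0.049) and the COX1 share by 2.17 points (permutation test, adjusted p = 0.049). In POF against the preovulatory class the log2 ratio of COX3 to COX1 was -0.05 with all libraries (exact permutation p = 0.73) and 0.21 without them.

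**Figure D5:**
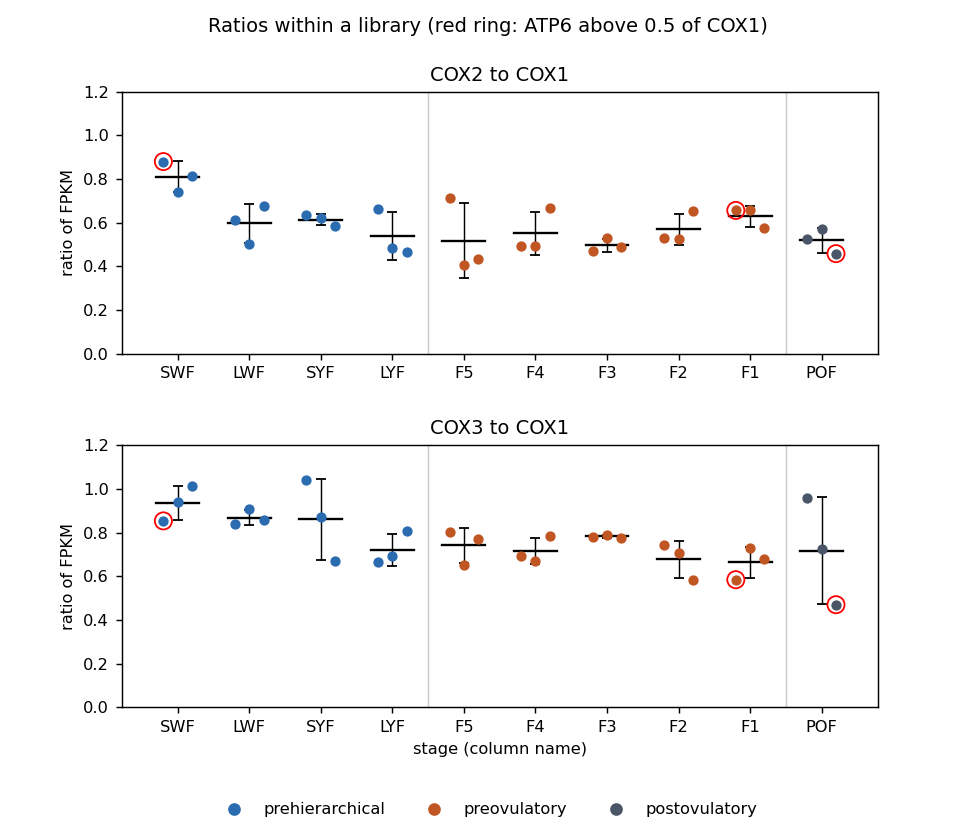
Ratio of FPKM of COX2 and COX3 to COX1 within each library, with the stage mean and SD (n = 3), and a red ring around the 3 libraries where ATP6 exceeds 0.5 of COX1. SWF lies at 0.741 to 0.879 for COX2, above all other libraries, and each ringed library is the lowest of its stage for COX3.

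The members moved together from library to library. Over the 30 libraries the log2 levels correlated with Pearson r = 0.80 for COX1 and COX2, 0.83 for COX1 and COX3, and 0.78 for COX2 and COX3. After subtraction of stage means the values were 0.85, 0.82 and 0.73, so the likeness was also present within stages. LYF replicate 1 and POF replicates 1 and 3 lay far from their stage means for COX1 and COX2, and r without them was not computed. These correlations are descriptions, since the points share library composition and depth. Within stages COX2 was closest to ATP8, its neighbour, at r = 0.95, whereas COX3 and ATP6, also neighbours, had r = -0.01. ATP6 also had low r with COX1 (0.37) and COX2 (0.38). In 3 libraries ATP6 was far above its level in the other 27, and r without them was not computed.

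Of all genes kept, those most like each member over the 30 libraries were mitochondrial. For COX1 they were ENSGALG00000033462, an unnamed mitochondrial identifier, with r = 0.93, then ND5 (0.85) and COX3 (0.83). For COX2 they were ATP8 (0.92), ND5 (0.87) and ND4 (0.84), and for COX3 they were COX1 (0.83), ND5 (0.81) and CYTB (0.78). ND5 encodes a subunit of complex I and was near each of the members. Outside the 16 mitochondrial identifiers the highest r was 0.59 for COX1 (ENSGALG00000030087), 0.74 for COX2 (ENSGALG00000040296) and 0.75 for COX3 (ENSGALG00000002152).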

How the data were processed

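Strand-specific, rRNA-depleted libraries of 10 stages with 3 replicates each were sequenced as paired ends. The authors mapped cleaned reads to GRCg6a with HISAT2 2.1.0, quantified genes with StringTie 1.3.3, and the deposited values are FPKM for each gene. Read totals are not part of that table, so no counting interval was computed. Names came from 36 identifiers that the study pairs with symbols, 16 of them mitochondrial and 13 of these named. The study lists these 36 because they were among its most highly expressed genes at all stages. The lists fixed for nuclear COX subunits, assembly factors and cell types had no matched member and gave no result.

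The filter kept 15197 genes, those above 0.5 FPKM in 2 or more libraries of any stage, and log2(FPKM + 1) was fitted with limma 3.58.1 in R 4.3.3, with trend. Benjamini-Hochberg adjustment ran over all genes kept. Calls required a fold over 1.5 in FPKM + 1 together with an adjusted p below 0.05, or the adjusted p alone for slopes. Log2 fold changes are on the log2(FPKM + 1) scale. Class contrasts compared means of stage means. Shares and ratios were compared by two-sided permutation tests (100000 resamples, or all 816 arrangements for POF). These tests, also used for levels, shuffled libraries between classes without regard to stage. The 3 members were named in full, and other genes by the fixed list of mitochondrial genes and by the highest correlations. Members and lists were chosen with earlier results of these data known. The fit was tested on simulated data. Alternatives covered scaling, pseudocount (0.1), filter, trend, base quality group, replicate block, denominator and leaving out libraries.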

Additional observations from a re-analysis of the deposited data

How the results depend on the processing

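In limma 0 of 3 COX genes were called in the class contrasts, the slope and the 6 stage pairs recomputed. This held under every alternative run, including without the trend. In the main fits 33.2% of all genes were called for preovulatory minus prehierarchical, 39.8% for POF minus preovulatory and 40.2% for the slope. For the 6 pairs that share ran from 0% (F5 minus LYF) to 52.9% (F1 minus SWF). The members had large SEs in the pair fits with trend, so the 0 there carries little information. The class differences of COX2 and COX3 (preovulatory minus prehierarchical) stayed negative throughout. That of COX1 became 0.011 under upper quartile scaling. Signs turned where the main value was small and, under some scalings, where it was larger. Examples are COX3 in F1 minus SWF (-0.43 in the main fit) and COX2 in F1 minus F5 (0.33). Upper quartile scaling moved the median of all genes by 0.60 in F1 minus SWF. The cause was not tested.

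For POF minus preovulatory, scaling to a sum of 1000000 gave 0.075 for COX1 and 0.026 for COX3, scaling to that sum outside mitochondrial genes gave 0.093, 0.014 and 0.043 for COX1, COX2 and COX3, and quantile normalization gave 0.38, 0.15 and 0.22. For the slope from F5 to F1, COX1 turned to -0.021, -0.025 and -0.14 under these 3 scalings, COX2 to -0.088 under quantile normalization, and COX3 to 0.071 under upper quartile scaling and 0.0054 without the 3 libraries with high ATP6.

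Among stage pairs, upper quartile scaling gave 0.43 for COX2 and 0.30 for COX3 in F1 minus SWF, -0.42 for COX1 and -0.36 for COX3 in POF minus F1, 0.46 for COX2 in LYF minus SWF and 0.22 for COX3 in F1 minus F5. Scaling to the sum gave COX1 -0.0082 in F1 minus SWF and -0.13 in F1 minus F5. Scaling outside mitochondrial genes gave COX1 -0.12 and -0.15 in the same pairs and COX2 0.031 in LYF minus SWF. Quantile normalization gave COX1 -0.24 in F1 minus SWF, COX2 0.30 in POF minus F1, and COX1 -0.48 and COX2 -0.40 in F1 minus F5. A term for the libraries of higher base quality gave COX1 -0.096, -0.29 and -0.16 in F1 minus SWF, POF minus SWF and F1 minus F5, where it leaves few libraries to compare. That term could not be fitted for LYF minus SWF and F5 minus LYF, which hold no such library.

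The call for the COX1 share (preovulatory minus prehierarchical) was lost with 16 mitochondrial identifiers in the denominator (2.02 points), with stage medians (2.38), without the 6 libraries of higher base quality (2.20) and without SWF (1.27), and it reversed against the whole library (-1.15), where COX2 (-1.12) and COX3 (-1.495) were called and the summed share moved to -3.77. Against the whole library without LYF replicate 1, added after seeing the data, the values were -0.87, -0.92 and -1.40 for COX1, COX2 and COX3 and -3.19 for the sum. The share of all genes that would pass against the whole library was not counted. Without SWF the COX2 share difference was 0.042. The call for COX3 to COX1 was lost with stage medians (-0.21), without the 6 libraries (-0.23) and without SWF (-0.18). For POF minus preovulatory the COX2 share turned to -0.23 with a denominator without ATP8, ND3 and ND4L, and stage medians gave -0.27 for the COX3 share, 0.026 for log2 COX2 to COX1 and 0.0018 for log2 COX3 to COX1. The log2 ratios of COX2 and COX3 to COX1 were 0.081 and 0.22 without the 6 libraries and 0.026 and 0.21 without the 3 with high ATP6.

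Leaving out 1 library gave preovulatory minus prehierarchical differences of -0.36 to -0.21 for COX1, -0.59 to -0.37 for COX2 and -0.62 to -0.46 for COX3, POF minus preovulatory differences of -0.38 to 0.35, -0.37 to 0.26 and -0.15 to 0.059, and slopes of -0.029 to 0.037, 0.068 to 0.094 and -0.062 to 0.0054. The pairs ranged for COX1 from -0.23 to 0.16 (F1 minus F5), -0.083 to 0.15 (F1 minus SWF), -0.36 to 0.37 (POF minus F1) and -0.29 to 0.44 (POF minus SWF). COX2 ranged from -0.58 to 0.28 (LYF minus SWF) and -0.55 to 0.076 (POF minus F1), and COX3 from -0.33 to 0.030 (F1 minus F5), -0.13 to 0.41 (LYF minus SWF) and -0.095 to 0.19 (POF minus F1). Shares differed between preovulatory and prehierarchical libraries by 1.94 to 2.75 points for COX1, -0.44 to -0.02 for COX2 and -1.15 to -0.35 for COX3, and between POF and preovulatory libraries by 0.33 to 2.89, 0.04 to 0.46 and -1.57 to 3.15. The log2 ratios in POF minus preovulatory ranged from -0.15 to 0.0073 for COX2 to COX1 and from -0.29 to 0.23 for COX3 to COX1.

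Same-numbered libraries of different stages deviated together weakly by the median (r = 0.06, against -0.026 for different numbers). An r over 0.1 was more frequent among them, in 45 of 135 pairs against 36 of 270 pairs with different numbers. Whether a shared number stands for a shared source was not tested, and the main fits did not pair libraries by number. With the replicate block the limma differences stayed at -0.31, -0.51 and -0.54, no member was called, and the COX1 share and the ratio of COX3 to COX1 both had an adjusted permutation p of 0.027. Read totals were not used, and 3 libraries a stage limit the precision of every stage mean.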

Other observations

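ATP8, the gene after COX2, tracked it in level. Its ratio to COX2 lay between 1.01 and 1.67 in all 30 libraries, with means of 1.26 ± 0.131 (SD, n = 12) in prehierarchical, 1.37 ± 0.169 (n = 15) in preovulatory and 1.23 ± 0.0680 (n = 3) in POF libraries. Its ratio to COX1 was 1.02 ± 0.127 in SWF, the highest stage mean, and 0.636 ± 0.0980 in POF, the lowest. By stage means SWF thus had the most of both ATP8 and COX2 for its COX1. For ATP8 the SWF libraries (0.927 to 1.17) overlapped with F5 replicate 1 (1.01) and LYF replicate 1 (0.974), unlike those for COX2. ATP8 and ATP6 overlap, and how their fragments were divided was not tested.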
